A study of Mus musculus with 12 samples.

Results

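The 10 genes Hspa1a, Hspa1b, Hspb1, Dnajb1, Hsph1, Hsp90aa1, Hspa8, Hspb8, Dnajb5 and Hspa4l encode heat shock proteins and their partners in the cytosol. They were picked by symbol from the 23183 gene symbols in the files, and all 10 were found and passed the filter on low values in both tissues. Expression was measured by RNA-seq of poly(A)-selected RNA in 2 brain regions, cortex and hippocampus, of C57BL/6 males. The IR group had received 10 Gy of X-rays to the whole brain in a single exposure, and the Con group was sham-irradiated on the same platform. The mice were bought at 7 weeks of age, kept for 1 week before the experiment and examined 3 months after irradiation. Each of the 4 groups (cortex Con, cortex IR, hippocampus Con and hippocampus IR) had 3 libraries, 12 in all. The sources do not state whether a library came from 1 mouse or from pooled tissue, so p-values measure the spread between these libraries, which may be technical. Both groups of the study also went through open-field and elevated plus maze tests at about the same time, and the sources do not state how long after them the tissue was taken.

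Heat shock proteins are molecular chaperones: they bind unfolded stretches of other proteins, prevent aggregation and pass clients on for folding or degradation. HSP70 proteins do this in cycles of ATP hydrolysis that J proteins (DNAJ) start and that HSP110 proteins, acting as nucleotide exchange factors, reset, whereas small heat shock proteins hold clients without ATP. In stressed cells the transcription factor HSF1 binds heat shock elements, alternating GAA and TTC units, in the promoters of the inducible genes, and neurons are known for a weak response of this kind. On that background the members were divided into 6 genes that HSF1 is known to induce (Hspa1a, Hspa1b, Hspb1, Dnajb1, Hsph1 and Hsp90aa1) and 4 treated here as mainly made without stress (Hspa8, Hspb8, Dnajb5 and Hspa4l). The division is not strict and can be debated. In the promoter search below, Hspb8 held an element and Dnajb1 held none.

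The near-identical pair Hspa1a and Hspa1b encodes the stress-inducible HSP70. On GRCm38 (mm10, the build the labels name) with the GENCODE M21 annotation, Hspa1a lies at chr17:34969190-34972156 and Hspa1b at chr17:34956436-34959238, both on the minus strand and each with 1 exon. Hspb1, the small heat shock protein HSP25/HSP27, lies at chr5:135887919-135889563 on the plus strand, where the exons of all its annotated transcripts merge into 2 blocks. The 250 bases before the start of these genes in the RefSeq table (GRCm38.p6) are shown because these 3 genes had the largest ratios of group means among the HSF1-induced members in both tissues. They are written 5′ to 3′ on the gene's strand, with capitals for heat shock elements of 2 units (GAANNTTC or TTCNNGAA, each the same on both strands).
Hspa1a, chr17:34972157-34972406, minus strand: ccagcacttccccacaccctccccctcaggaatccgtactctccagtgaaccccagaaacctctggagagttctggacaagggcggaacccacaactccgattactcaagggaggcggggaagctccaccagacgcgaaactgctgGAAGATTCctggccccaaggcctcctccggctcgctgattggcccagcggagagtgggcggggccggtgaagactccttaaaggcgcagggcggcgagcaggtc
Hspa1b, chr17:34959239-34959488, minus strand: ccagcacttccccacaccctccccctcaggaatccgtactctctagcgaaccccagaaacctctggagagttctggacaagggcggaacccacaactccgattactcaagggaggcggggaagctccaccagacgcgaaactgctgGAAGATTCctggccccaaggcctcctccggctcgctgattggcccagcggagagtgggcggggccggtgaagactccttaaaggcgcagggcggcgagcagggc
Hspb1, chr5:135887669-135887918, plus strand: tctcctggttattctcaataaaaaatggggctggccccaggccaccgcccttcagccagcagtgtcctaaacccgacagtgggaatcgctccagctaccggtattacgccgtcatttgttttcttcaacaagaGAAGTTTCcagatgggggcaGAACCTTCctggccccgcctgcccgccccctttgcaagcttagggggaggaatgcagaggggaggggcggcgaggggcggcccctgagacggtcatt
The element of Hspa1a and Hspa1b ran from 104 to 97 bases before the start, and the 2 of Hspb1 from 117 to 110 and from 97 to 90 bases before it. The Hspa1a and Hspa1b windows were identical at 247 of 250 positions (98.8%). Counted from 1 at the 5′ end of the window, with the Hspa1a base first, they differed by C44T, T47C and T249G.

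The table held windows of 300 bases (250 before and 50 after the start) for 8 of the 10 members, not for Hspa8 and Hsp90aa1. A 2-unit element was found in 5 of these 8 (Hspa1a, Hspa1b, Hspb1, Hsph1 and Hspb8), against 15.1% of all 32851 windows and 17.0% of all 27025 genes in the table. A 3-unit element (GAANNTTCNNGAA or TTCNNGAANNTTC, which contains overlapping 2-unit elements and was searched on both strands) was found in Hsph1 alone of the 8, against 0.603% of windows. Stretches of 30 bases around the elements of Hsph1, which encodes the HSP110 family protein HSP105, and of Hspb8, a small heat shock protein that works with the cochaperone BAG3, are shown because these are the other members with an element.
Hsph1, before the start, chr5:149636351-149636380, minus strand: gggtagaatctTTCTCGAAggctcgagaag
Hsph1, after the start, 3 units, chr5:149636287-149636316, minus strand: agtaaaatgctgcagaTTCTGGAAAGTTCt
Hspb8, stretch across the start with the element after it, chr5:116422844-116422873, minus strand: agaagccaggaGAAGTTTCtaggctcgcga
These letters are a description of the windows, not evidence that HSF1 was bound. Neither element was found in the windows of Dnajb1, Dnajb5 or Hspa4l.

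Reads of some members can be shared with close copies. Of all 100-base stretches in its annotated transcripts, Hspa1a shared 48.6% with other genes, 47.1% with Hspa1b, and Hspa1b shared 49.9% with Hspa1a. Hspb1 shared 44.0% with the pseudogene Hsp25-ps1, Hsp90aa1 shared 38.0% with 3 other genes and Hspa8 shared 28.2% with 7. The remaining 5 members shared none. Hspa1a also overlaps Gm20481, a gene annotated on the opposite strand. How the authors' counting divided such reads is not given in the sources used here, so the levels of Hspa1a and Hspa1b in particular are uncertain as single genes and were also added together.

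The levels given here are FPKM (fragments scaled by transcript length and by library size), a scale on which genes of different length can be compared. In the cortex of Con mice, the constitutive HSP70 gene Hspa8 (HSC70) was the most abundant member, at 817 ± 26.2 FPKM (mean ± SD, n = 3). It was followed by Hsp90aa1 (the inducible HSP90 alpha) at 404 ± 13.2 and Hsph1 at 74.7 ± 3.72 FPKM. The J protein gene Dnajb5 stood at 44.2 ± 3.61, Hspa4l (an HSP110 family member) at 28.6 ± 3.67 and Dnajb1 (HSP40, the main J protein partner of inducible HSP70) at 20.0 ± 1.57 FPKM. The lowest were Hspb1 at 7.26 ± 0.647, Hspb8 at 5.5 ± 0.51, Hspa1a at 2.74 ± 0.245 and Hspa1b at 2.02 ± 0.157 FPKM. No neighbours in this order overlapped in their 3 Con libraries, and the top and the bottom level were 404-fold apart. Hspa8 alone made up 57.9% to 59.1% of the summed FPKM of the 10 genes in the 6 cortex libraries.

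In the hippocampus of Con mice the first 6 places had the same order, from Hspa8 at 848 ± 24.0, Hsp90aa1 at 403 ± 44.4, Hsph1 at 102 ± 11.2, Dnajb5 at 48.3 ± 2.34 and Hspa4l at 22.6 ± 1.36 to Dnajb1 at 14.1 ± 0.810 FPKM. Hspb8 (7.14 ± 0.928), Hspb1 (5.60 ± 1.98), Hspa1b (4.03 ± 0.689) and Hspa1a (3.03 ± 0.401 FPKM) followed. Here Hspb8 overlapped with Hspb1 and Hspb1 with Hspa1b, while the other neighbours did not overlap.

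The question for each region was which members differed between IR and Con. In the cortex, Dnajb5 rose and was the only member to pass the adjusted threshold. It was at 40.1, 45.9 and 46.7 FPKM in the 3 Con libraries and at 71.4, 67.8 and 73.3 in the 3 IR libraries. The groups were far apart and the IR libraries were close to each other. The log2 fold change was 0.67 ± 0.067 (SE; adjusted p = 0.0040, limma), on the log2(FPKM + 1) scale used throughout, and the ratio of the group means was 1.60. Across all 14065 genes tested in the cortex, 0.725% passed an adjusted p of 0.05. Leaving out any single cortex library left the log2 fold change between 0.60 and 0.71 and the adjusted p at 0.0353 or less. Dnajb5 belongs to the same J protein class as Dnajb1, which supplies HSP70 with clients, and lies at chr4:42949814-42959425 on the plus strand.

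**Figure D1:**
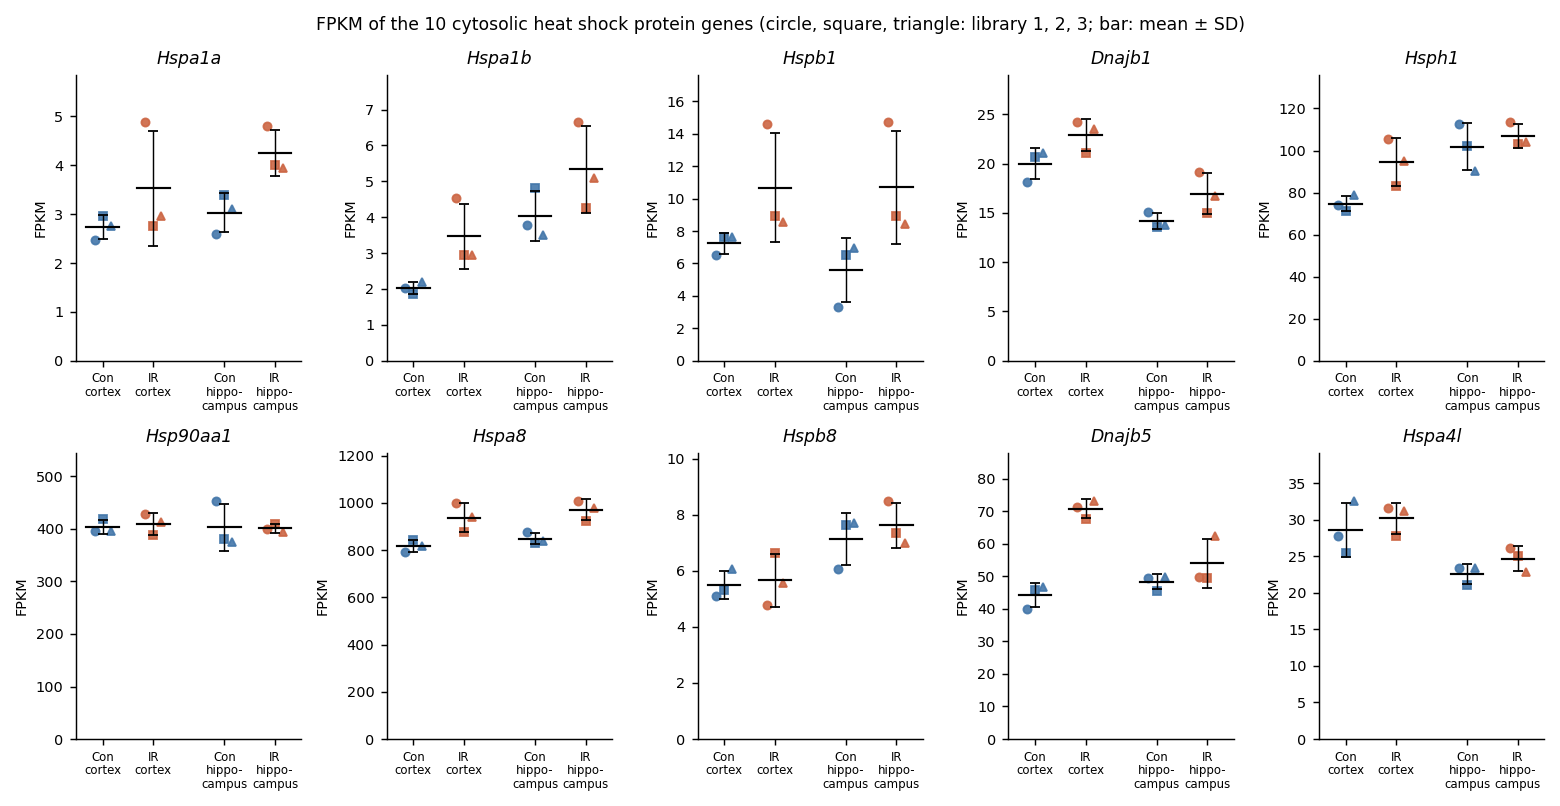
FPKM of the 10 members in each library (y axis, linear and starting at 0) by group (x axis). Points are libraries 1 to 3, long bars the mean and whiskers the SD. Dnajb5 in the cortex shows IR libraries at 67.8 to 73.3 FPKM above Con libraries at 40.1 to 46.7, and library IR 1 is the highest point for most HSF1-induced members.

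The other members did not reach the adjusted threshold in the cortex, but all 10 log2 fold changes were above 0, against 50.5% of all genes tested. At an unadjusted p under 0.05, 6 of the 10 members were higher in IR (Hspa1b, Hspb1, Dnajb1, Hsph1, Hspa8 and Dnajb5) and 0 were lower, where 8.16% of all genes tested were higher and 5.94% lower. The same 6 members had no overlap between groups, against 11.2% of all genes tested in that direction. The median log2 fold change was 0.22 over the 10 members, 0.29 over the 6 HSF1-induced members and 0.14 over the 4 mainly basal members, beside 0.00162 over all genes tested. Of the HSF1-induced members 4 of 6 and of the mainly basal members 2 of 4 were among those at an unadjusted p under 0.05.

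Among the inducible HSP70 genes, Hspa1b was at 2.02, 1.87 and 2.18 FPKM in the cortex of Con mice and at 4.52, 2.94 and 2.95 in IR mice. Every IR library lay above every Con library, and IR 1 lay well above the other two. The ratio of means was 1.71 and the log2 fold change 0.55 ± 0.13 (unadjusted p = 0.00228, adjusted p = 0.115, limma). Hspa1a was at 2.48, 2.96 and 2.77 FPKM in Con and at 4.88, 2.75 and 2.96 in IR. Its groups overlapped, since only IR 1 lay above the Con libraries, and its log2 fold change of 0.25 ± 0.16 (adjusted p = 0.520, limma) was 0.047 without IR 1. Without IR 2 it was 0.37 (unadjusted p = 0.0449, adjusted p = 0.424, limma). With both genes added together and fitted as 1 gene, the log2 fold change was 0.44 (unadjusted p = 0.0158, adjusted p = 0.242, limma).

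Hspb1 was at 6.51, 7.61 and 7.65 FPKM in cortex Con and at 14.6, 8.91 and 8.55 in cortex IR libraries. The groups did not overlap, but IR 1 again stood far above IR 2 and IR 3. The log2 fold change was 0.47 ± 0.17 (unadjusted p = 0.0274, adjusted p = 0.290, limma) and 0.24 without IR 1. Hsph1 was at 74.2, 71.3 and 78.6 FPKM in Con and at 106, 83.0 and 95.1 in IR, with no overlap and a log2 fold change of 0.33 ± 0.082 (unadjusted p = 0.00259, adjusted p = 0.122, limma). Dnajb1 was at 18.2, 20.7 and 21.1 in Con and at 24.2, 21.1 and 23.5 FPKM in IR. The lowest IR library of Dnajb1 lay just above the highest Con library, and its log2 fold change was 0.19 ± 0.074 (unadjusted p = 0.0278, adjusted p = 0.290, limma). The unadjusted p of Dnajb1 was above 0.05 when Con 1, IR 1 or IR 3 was left out (0.117, 0.104 and 0.0798), and that of Hspb1 when any 1 of the Con libraries was (0.0508 to 0.0854) and in a single fit of all 12 libraries (0.112).

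Hspa8 was at 790.4, 843 and 818 FPKM in cortex Con and at 998, 878 and 939 in cortex IR. All IR libraries lay above all Con libraries, with a ratio of means of 1.148 and a log2 fold change of 0.20 ± 0.059 (unadjusted p = 0.00772, adjusted p = 0.188, limma). Because of its abundance, this small ratio was a larger change in FPKM than that of any other member. Hsp90aa1 was at 397, 419 and 396 FPKM in Con and at 428, 388 and 414 in IR, which overlapped, and its log2 fold change was 0.021 ± 0.055 (adjusted p = 0.906, limma). The other 5 HSF1-induced members had log2 fold changes of 0.19 or more, and their difference from Hsp90aa1 was not tested. Hspb8 (log2 fold change 0.029 ± 0.11) and Hspa4l (0.079 ± 0.089) also overlapped between groups, with ranges of 5.10 to 6.08 and 4.77 to 6.64 FPKM for Hspb8 and of 25.4 to 32.6 and 27.8 to 31.6 FPKM for Hspa4l in Con and IR libraries. The log2 fold change of Hspa4l was 0.00055 without Con 2 and 0.17 without Con 3 (unadjusted p = 0.0480, limma).

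The study's thresholds, a fold of 1.5 and an unadjusted p of 0.05, were applied here to the ratio of group means and the limma p. The study's own p-values may differ, so these calls and shares are not its own. In the cortex the thresholds were passed by 2 members, Hspa1b and Dnajb5, and by 1.87% of all genes tested. Without IR 1 of the cortex this was 1 member, Dnajb5.

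In the hippocampus, 0 members passed the adjusted threshold, which 4 of 14043 genes (0.0285%) did by limma, while 4 members were at an unadjusted p under 0.05 (Hspa1a, Hspb1, Dnajb1 and Hspa8). All 4 were higher in IR, where 7.06% of all genes tested were higher and 6.89% lower. Of these, Hspa1a, Hspb1 and Hspa8 had no overlap between groups, against 10.5% of all genes in that direction. The log2 fold change was above 0 for 9 of the 10 members, against 47.3% of all genes tested. Its median was 0.17 over the 10 members, 0.28 over the HSF1-induced and 0.14 over the mainly basal members, beside -0.00997 over all genes tested.

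Hspb1 had the largest log2 fold change of the 10 in the hippocampus. It was at 3.32, 6.55 and 6.93 FPKM in Con and at 14.7, 8.94 and 8.45 in IR libraries. The groups did not overlap, with Con 1 far below and IR 1 far above the others of its group. The ratio of means was 1.91 and the log2 fold change 0.84 ± 0.27 (unadjusted p = 0.0161, adjusted p = 0.295, limma), which was 0.56 without Con 1 and 0.61 without IR 1. Hspb1 was the only member to pass the study's thresholds with the limma p in this tissue, which 1.73% of all genes tested did.

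Hspa1a was at 2.60, 3.39 and 3.10 FPKM in hippocampus Con and at 4.80, 4.0 and 3.95 in hippocampus IR libraries. The groups did not overlap, and the log2 fold change was 0.38 ± 0.11 (unadjusted p = 0.00710, adjusted p = 0.259, limma). Hspa1b was at 3.79, 4.81 and 3.5 in Con and at 6.65, 4.26 and 5.10 FPKM in IR, so that IR 2 lay below Con 2. Its log2 fold change was 0.32 ± 0.15 (unadjusted p = 0.0648, adjusted p = 0.380, limma), with 0.18 without IR 1 and 0.45 without IR 2. The unadjusted p of Hspa1b was under 0.05 without Con 2 (0.0299) and without IR 2 (0.0189). Both genes added together gave 0.39 (unadjusted p = 0.0166, adjusted p = 0.296, limma). In this tissue it was Hspa1a, and in the cortex Hspa1b, that had no overlap between groups, and the split between them depends on how the reads of their shared sequence were assigned.

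Hspa8 was at 875, 830.3 and 839 FPKM in hippocampus Con and at 1010.1, 923 and 980.3 in hippocampus IR. The groups did not overlap, and the log2 fold change was 0.19 ± 0.072 (unadjusted p = 0.0274, adjusted p = 0.326, limma), close to the 0.20 of the cortex. Dnajb1 was at 15.1, 13.5 and 13.8 FPKM in Con and at 19.1, 15.0 and 16.8 in IR, with a slight overlap of Con 1 and IR 2 and a log2 fold change of 0.24 ± 0.093 (unadjusted p = 0.0319, adjusted p = 0.333, limma). Without IR 1, or without IR 3, the unadjusted p was above 0.05 for both (0.0914 and 0.0931 for Hspa8, 0.116 and 0.0682 for Dnajb1), which left 2 members under it instead of 4. It was also above 0.05 for both without Con 2 (0.083 for Hspa8 and 0.0935 for Dnajb1) and for Dnajb1 without Con 3 (0.0647). The log2 fold change of Dnajb1 was 0.16 without IR 1.

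Hsph1, which was 1.27-fold higher in IR in the cortex, was at 113, 102 and 90.4 FPKM in hippocampus Con and at 113, 103 and 104 in hippocampus IR. The groups overlapped widely, and the log2 fold change was 0.074 ± 0.091 (adjusted p = 0.722, limma). Dnajb5 was at 49.6, 45.6 and 49.8 FPKM in Con and at 49.8, 49.7 and 62.5 in IR, where only IR 3 stood above the Con libraries, and its log2 fold change was 0.15 ± 0.098 (adjusted p = 0.498, limma) and 0.040 without IR 3. Hsp90aa1 (374 to 454 FPKM in Con and 394 to 410.1 in IR), Hspb8 (6.07 to 7.72 and 6.99 to 8.51) and Hspa4l (21.0 to 23.4 and 22.9 to 26.2) overlapped as well, with log2 fold changes of -0.00059, 0.085 and 0.12. That of Hspa4l ranged from 0.074 to 0.17 with single libraries left out and was as low as 0.033 in another alternative.

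**Figure D2:**
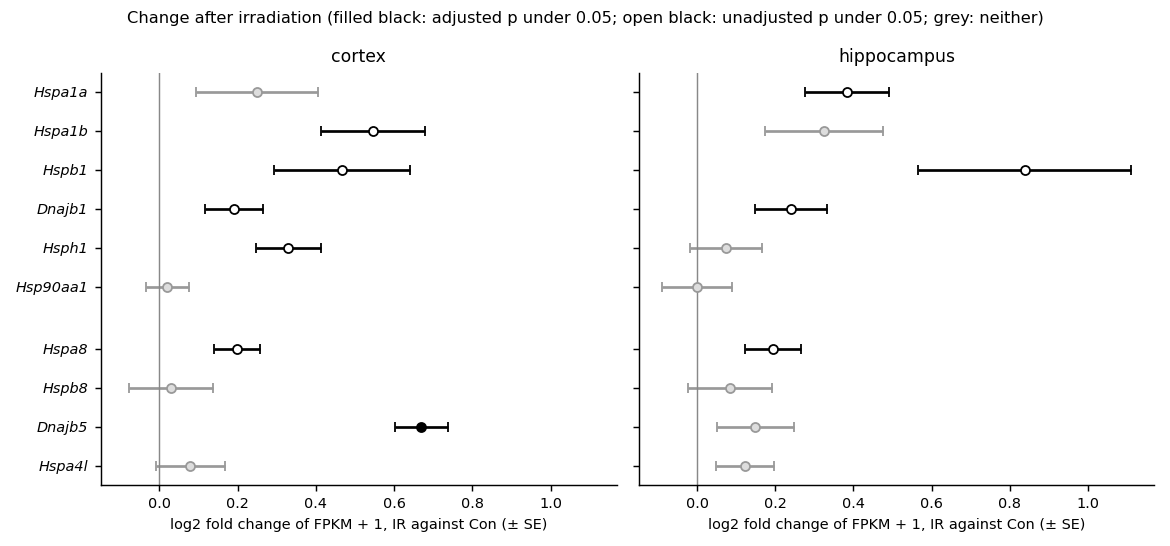
log2 fold change of FPKM + 1 between IR and Con (x axis) with its standard error for each member (y axis; upper 6, HSF1-induced; lower 4, mainly basal) in the cortex (left) and the hippocampus (right). Only Dnajb5 in the cortex, at 0.67, is filled black, and Hsp90aa1 lies at 0.021 and -0.00059.

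Whether the difference between IR and Con was the same in the 2 regions was tested as an interaction over the 12 libraries. By limma, 0 of the 10 members passed an adjusted p of 0.05, which 0.083% of 14459 genes did, and 1 member, Dnajb5, had an unadjusted p under 0.05, which 10.4% of all genes had. For Dnajb5 the log2 fold change of the hippocampus minus that of the cortex was -0.52 (± 0.13 SE, unadjusted p = 0.00109, adjusted p = 0.201, limma). For Hsph1 the difference was -0.26 ± 0.13 (unadjusted p = 0.0736, adjusted p = 0.518, limma). For Hspb1 it was 0.37 ± 0.38, so the larger fold in the hippocampus was within its error, and it was 0.091 without hippocampus Con 1 and 0.60 without cortex IR 1. Region cannot be told apart from processing run, because the value columns of the cortex and the hippocampus files carry different run labels.

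For most members 1 library held the highest value. In the cortex, IR 1 had the highest value of the 6 libraries for 7 of the 10 members, including 6 of the 6 HSF1-induced ones, whereas it was the highest for 19.6% of all genes tested. In the hippocampus, IR 1 was the highest for 8 of 10 members and 5 of the 6 HSF1-induced ones, against 15.7% of all genes. The exceptions were Hspb8, Dnajb5 and Hspa4l in the cortex and Hsp90aa1 and Dnajb5 in the hippocampus. Whether libraries with the same number in both tissues came from the same mouse is not stated.

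Genes of other stress responses had their extreme values in the same library. The endoplasmic reticulum chaperones, which fold secreted and membrane proteins and answer to the unfolded protein response rather than to HSF1, had their highest value in IR 1 for 14 of 14 genes in the cortex and 11 of 14 in the hippocampus. In the cortex 12 of the 14 were higher in IR at an unadjusted p under 0.05 (8.16% of all genes), with a median log2 fold change of 0.29. In the hippocampus it was 3 of 14 (7.06% of all genes), with a median of 0.22. Hspa5 (BiP, the HSP70 of the endoplasmic reticulum) was at 70.8, 77.0 and 75.8 FPKM in cortex Con and at 146, 99.96 and 107 in cortex IR (adjusted p = 0.0778, limma). In the hippocampus Hspa5 was at 85.3, 86.2 and 72.5 FPKM in Con and at 166, 94.8 and 108 in IR (adjusted p = 0.300, limma). Sdf2l1, a stress-inducible gene of the same compartment, was at 6.25 to 6.70 FPKM in cortex Con and at 16.9, 8.57 and 9.88 in cortex IR (adjusted p = 0.203, limma), and its log2 fold change in the hippocampus was 0.41 ± 0.36.

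The cold-inducible RNA-binding protein genes Cirbp and Rbm3, which are known to be made at lower temperature, had lower values in IR. Cirbp fell in the cortex, from 68.0, 73.2 and 65.7 FPKM in Con to 34.7, 45.7 and 45.5 in IR (log2 fold change -0.71 ± 0.099, adjusted p = 0.0168, limma). In the hippocampus it was at 95.6, 74.5 and 52.6 FPKM in Con and at 24.7, 40.3 and 36.8 in IR (log2 fold change -1.10 ± 0.24, adjusted p = 0.230, limma). Rbm3 had log2 fold changes of -0.46 ± 0.092 in the cortex (adjusted p = 0.0643) and -0.86 ± 0.17 in the hippocampus (adjusted p = 0.214, limma), with no overlap between groups in either. IR 1 was the lowest library for both genes in both tissues, the same library that was the highest for most heat shock genes. What part these genes' differences had in those of the heat shock genes was not tested.

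**Figure D3:**
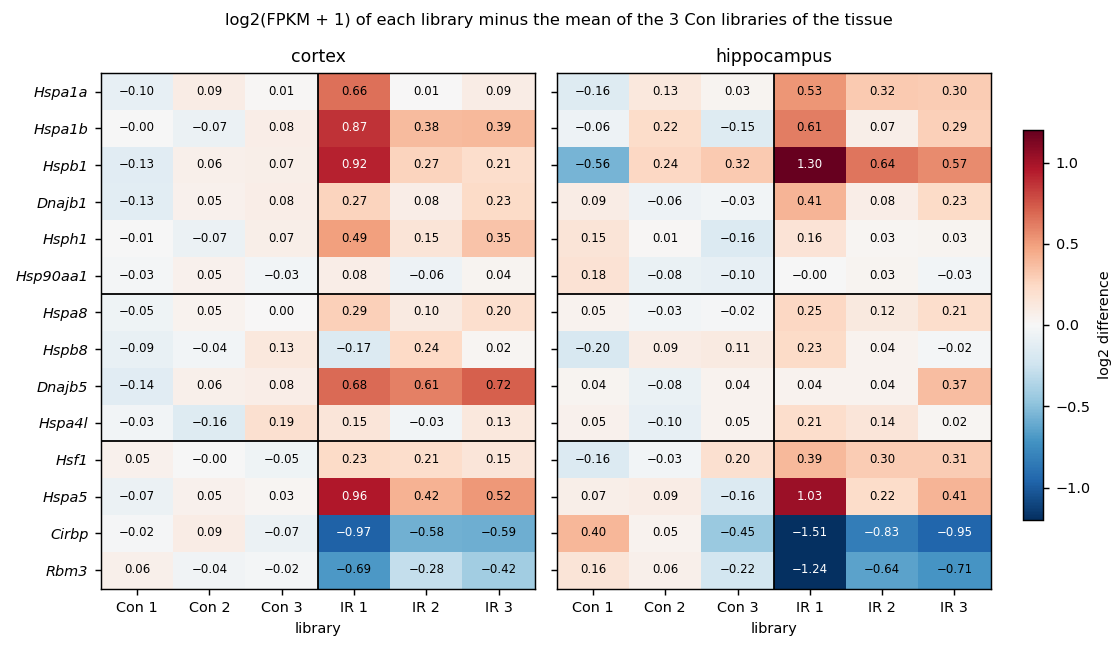
Each cell is the log2(FPKM + 1) of a gene (row) in a library (column) minus the mean of the 3 Con libraries of its tissue; red is higher and blue lower. Rows are the 6 HSF1-induced members, the 4 mainly basal members and, for comparison, Hsf1, Hspa5, Cirbp and Rbm3. The IR 1 columns hold the deepest red in Hspa1a, Hspa1b, Hspb1 and Hspa5 and the deepest blue in Cirbp and Rbm3, while Dnajb5 in the cortex is alike in the 3 IR libraries.

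The contrast of inducible with constitutive paralogs was made within each library, where scaling between libraries does not enter. With 3 against 3 libraries the smallest two-sided p of the exact permutation test is 0.1, so none of these ratios could pass 0.05. The inducible HSP70 pair, Hspa1a and Hspa1b together, amounted to 0.569%, 0.573% and 0.605% of the FPKM of Hspa8 in cortex Con and to 0.942%, 0.648% and 0.629% in cortex IR. The groups did not overlap, and the log2 difference was 0.32 (exact permutation p = 0.1), but it was 0.13 without IR 1. In the hippocampus the same share was 0.729%, 0.987% and 0.787% in Con and 1.13%, 0.895% and 0.924% in IR, which overlapped (log2 difference 0.24, exact permutation p = 0.3). The difference was 0.15 without Con 1, 0.14 without IR 1 and 0.37 without Con 2.

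For the HSP90 pair, Hsp90aa1 over its constitutive paralog Hsp90ab1, the ratio was 0.716, 0.683 and 0.697 in cortex Con and 0.710, 0.701 and 0.704 in cortex IR. These groups overlapped (log2 difference 0.013, exact permutation p = 0.6), as they did in the hippocampus, at 0.498, 0.487 and 0.542 in Con and 0.556, 0.549 and 0.508 in IR (0.080, exact permutation p = 0.2). The hippocampal difference was 0.048 without Con 2 and 0.13 without Con 3. For the HSP110 pair, Hsph1 over its constitutive paralog Hspa4, the ratio was 1.48, 1.46 and 1.49 in cortex Con and 1.79, 1.62 and 1.75 in cortex IR. The Con libraries were within a narrow band and all IR libraries lay above it (log2 difference 0.22, exact permutation p = 0.1). In the hippocampus the HSP110 ratio was 1.62, 1.56 and 1.58 in Con and 1.77, 1.59 and 1.65 in IR, which overlapped (0.072, exact permutation p = 0.2). That difference was 0.032 without IR 1 and 0.11 without IR 2. The ratio of Hspa1b to Hspa1a was 0.815, 0.630 and 0.789 in cortex Con and 0.926, 1.07 and 0.995 in cortex IR, without overlap (0.43, exact permutation p = 0.1), and it overlapped in the hippocampus (-0.098, exact permutation p = 0.5). The last ratio depends on how reads of the sequence shared by both genes were assigned. A difference in a ratio does not show which of its 2 genes changed.

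**Figure D4:**
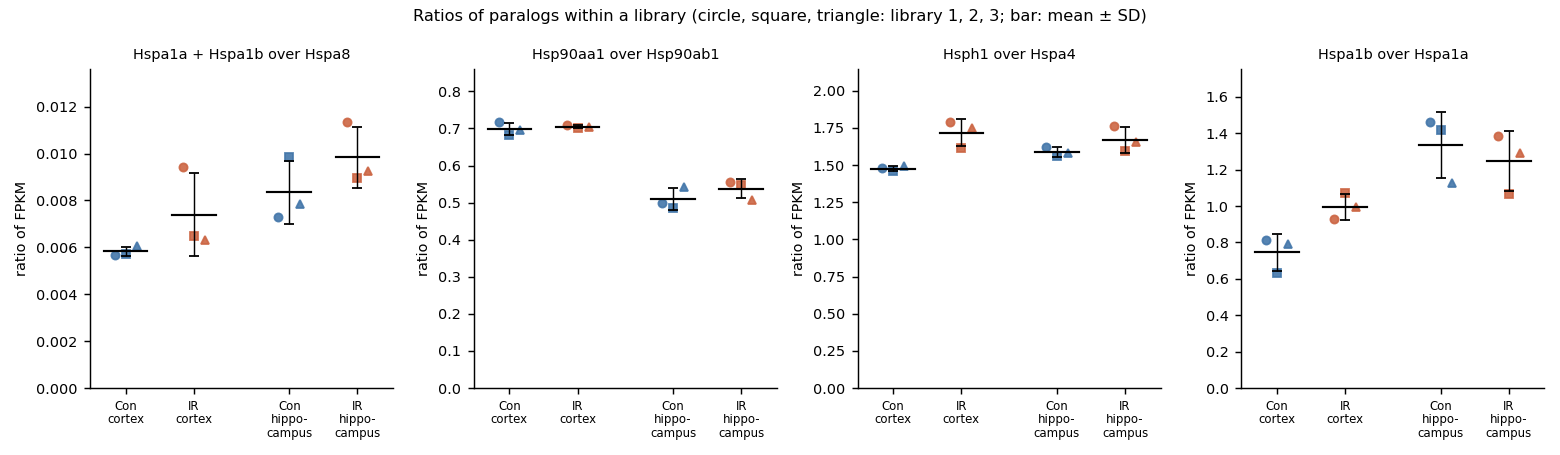
Ratio of FPKM of inducible to constitutive paralogs, and of Hspa1b to Hspa1a, within each library (y axes, linear and starting at 0) by group (x axis); points are libraries, long bars means and whiskers SD. Hsph1 over Hspa4 in the cortex is at 1.62 to 1.79 in IR above 1.46 to 1.49 in Con, while Hsp90aa1 over Hsp90ab1 overlaps in both tissues.

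Of the constitutive paralogs Hsp90ab1, Hspa4, Hspa2, Hspa12a, Hspa12b, Hspa13 and Hspa14, 0 of 7 had an unadjusted p under 0.05 in either tissue by limma, against 14.1% (cortex) and 13.9% (hippocampus) of all genes, a share at which 0 of 7 says little about these genes. Their median log2 fold change was 0.0080 in the cortex against -0.046 in the hippocampus. Hsp90ab1, more abundant than Hsp90aa1, was at 554 to 613 FPKM in cortex Con and at 553 to 603 in cortex IR, and Hspa4 was at 48.8 to 52.7 and 51.4 to 59.1. The transcript of the regulator Hsf1 was at 14.6, 14 and 13.5 FPKM in cortex Con and at 16.7, 16.4 and 15.7 in cortex IR (log2 fold change 0.20 ± 0.058, unadjusted p = 0.00673, adjusted p = 0.181, limma). In the hippocampus it was at 11.7, 13.0 and 15.3 in Con and at 17.7, 16.6 and 16.6 in IR (0.33 ± 0.095, unadjusted p = 0.00789, adjusted p = 0.261, limma), so its groups did not overlap in either tissue. HSF1 is activated mainly at the protein level, which these data do not measure. Hsf2, Hsf4 and Hsbp1 (an HSF1-binding protein) had log2 fold changes of -0.049, 0.081 and -0.034 in the cortex and of -0.042, 0.10 and -0.14 in the other region, and Hsf5 did not pass the filter.

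Of 20 cochaperones of HSP70 and HSP90, 6 were higher in cortex IR at an unadjusted p under 0.05 (8.16% of all genes), 0 were lower and 0 passed the adjusted threshold, with a median log2 fold change of 0.088. In the hippocampus 1 of 20 was higher, Stip1, which is below the 7.06% of all genes, and the median was 0.0062. Stip1 (HOP, which joins HSP70 to HSP90) was at 64.5, 70.6 and 66.0 FPKM in cortex Con and at 83.5, 73.2 and 73.4 in cortex IR (adjusted p = 0.242), and its log2 fold changes were 0.19 (cortex) and 0.24 (hippocampus). Chordc1, an HSP90 partner, had the largest cortical difference of this list, at 18.3, 19.2 and 17.2 FPKM in Con and 29.8, 21.3 and 24.7 in IR (log2 fold change 0.44 ± 0.10, adjusted p = 0.114, limma). Bag5 had log2 fold changes of 0.14 (cortex) and -0.23 (hippocampus).

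Of 13 other J proteins, 3 were higher in cortex IR at an unadjusted p under 0.05, against 8.16% of all genes. In the hippocampus 0 were by limma, against 7.06% of all genes, and 2 of 13 had a log2 fold change above 0, against 47.3%. Next to Dnajc21, the largest log2 fold changes of this list were those of Dnajb14 in the cortex (-0.19) and Dnajc8 in the hippocampus (-0.25), which did not pass. Dnajc21, a J protein of ribosome maturation, rose in the cortex, from 24.4, 18.6 and 21.1 FPKM in Con to 37.1, 33.1 and 28.5 in IR (log2 fold change 0.60 ± 0.11, adjusted p = 0.0475, limma). In the hippocampus it was at 13.5 to 21.3 FPKM in Con and 12.1 to 15.9 in IR (-0.25 ± 0.16, adjusted p = 0.482). Among the other small heat shock proteins, Cryab (alpha B-crystallin, abundant in oligodendrocytes) rose in the cortex, from 62.1, 56.5 and 58.5 FPKM in Con to 79.6, 80.5 and 72.0 in IR (log2 fold change 0.38 ± 0.061, adjusted p = 0.0286, limma). In the hippocampus Cryab was at 43.7, 48.5 and 52.3 FPKM in Con and at 72.0, 57.7 and 52.6 in IR (0.32 ± 0.12, adjusted p = 0.326, limma). Unlike Hspb1, Cryab in the cortex did not have its highest value in IR 1. Hspb11 in the cortex (-0.092) and Hspb2 in the hippocampus (-0.44 ± 0.26) did not pass. The chaperonin TRiC and prefoldin (13 genes) had 1 gene, higher in hippocampal IR, at an unadjusted p under 0.05 and 0 in the cortex. The mitochondrial chaperones (9 genes) had 2 higher and 1 lower in hippocampal IR and likewise 0 in the cortex, none of them past the adjusted threshold by limma. Of all genes, 7.06% were higher and 6.89% lower at that level in the hippocampus, and 8.16% and 5.94% in the cortex. The largest log2 fold changes in these lists were those of Pfdn1 (-0.12), Pfdn6 (-0.11), Clpp (-0.12) and Hspd1 (0.098) in the cortex and of Pfdn2 (-0.72 ± 0.36), Pfdn6 (-0.37), Hspe1 (-0.43) and Clpb (0.24) in the hippocampus.

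Between the regions of Con mice, 5 of the 10 members differed at an adjusted p under 0.05, where 44.2% of all genes tested did (23.6% higher and 20.6% lower in the hippocampus). Hspa1b (log2 difference hippocampus minus cortex 0.73, adjusted p = 0.00188), Hsph1 (0.44, adjusted p = 0.00193) and Hspb8 (0.32, adjusted p = 0.0364) were higher in the hippocampus, and Dnajb1 (-0.47, adjusted p = 0.000754) and Hspa4l (-0.32, adjusted p = 0.00941, limma) were lower. The call of Hspb8 was lost with size factors (adjusted p = 0.0505) and with no filter (0.0566). It was also lost without Con 1 or Con 2 of the cortex and without Con 2 or Con 3 of the hippocampus (0.0935 to 0.119). Hspa1a (0.11), Hspa8 (0.054), Hsp90aa1 (-0.0083), Hspb1 (-0.37) and Dnajb5 (0.13) did not pass, and the difference of Hspb1 was -0.091 without hippocampus Con 1. With single libraries left out, the difference ranged from 0.042 to 0.19 for Hspa1a, from 0.031 to 0.077 for Hspa8 and from 0.060 to 0.17 for Dnajb5. As above, region and processing run cannot be told apart in these values.

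In bulk tissue, fewer cells of a type and less RNA per cell cannot be told apart, and marker genes of several cell types differed at an unadjusted p under 0.05, against 14.1% (cortex) and 13.9% (hippocampus) of all genes. Of the cell type markers 1 passed the adjusted threshold, Csf1r of microglia, which fell in the hippocampus from 22.3, 20.5 and 24.1 FPKM in Con to 12.03, 11.7 and 12.2 in IR (adjusted p = 0.0126, limma). The 6 endothelial markers summed to 45.8 to 54.4 FPKM in cortex Con and 57.1 to 67.7 in cortex IR, and to 42.5 to 49.1 and 54.0 to 56.1 in the hippocampus, with 3 and 2 of 6 genes higher at an unadjusted p under 0.05, led by Cldn5 (log2 fold changes of 0.46 and 0.45). The 6 microglia markers summed to 85.2 to 95.3 FPKM in cortex Con and 65.2 to 88.7 in cortex IR, and to 85.1 to 105 and 66.1 to 76.3 in the hippocampus, with 2 (Csf1r and Cx3cr1) and 4 of 6 genes lower at that level. The 5 oligodendrocyte markers summed to 968 to 1198 FPKM in cortex Con and 1215 to 1472 in cortex IR, and overlapped in the hippocampus (997 to 1211 and 934 to 1192). In the cortex Mbp and Mobp were higher at an unadjusted p under 0.05, and in the hippocampus 2 markers were lower without overlap, Mog (log2 fold change -0.30, unadjusted p = 0.00494) and Mag (-0.30, unadjusted p = 0.0290, limma). Of 5 astrocyte markers, 1 was higher in the cortex (Aldoc) and 2 were lower in the hippocampus without overlap (Aldh1l1 and Slc1a3). The 5 fibroblast and meningeal markers were all above 0 in the hippocampus, with a median log2 fold change of 0.33 and Slc6a13 at an unadjusted p of 0.00737 (limma), and all below 0 in the cortex. The 5 neuron markers gave 0 calls at an unadjusted p under 0.05 in either tissue by limma, with sums that overlapped. Choroid plexus and ependyma markers, led by Ttr, summed to 1049 FPKM in Con 2 and 1644 in IR 1 of the hippocampus and to 24.4 to 71.0 in its other libraries, so hippocampal IR 1 was also a library with choroid plexus RNA. In cortex IR 1 that sum was 19.4 FPKM, and in cortex IR 2 it was 438. Without Con 2 and IR 1 of the hippocampus, 2 members (Hspa1a and Hspb1) stayed at an unadjusted p under 0.05. Of the other two, Hspa8 then had a log2 fold change of 0.15 (0.19 with all libraries) and Dnajb1 of 0.13 (0.24 with all libraries). Immediate early genes, which neurons switch on with activity, summed to 156, 332 and 351 FPKM in cortex Con and 540.4 to 659.8 in cortex IR. Of these 10 genes 5 were higher there at an unadjusted p under 0.05 (8.16% of all genes), with Fosb at an adjusted p of 0.0303 (limma). In the hippocampus 1 of 10 was higher at that level (7.06% of all genes), and the sums overlapped (98.7 to 147 FPKM in Con and 117 to 196 in IR). The largest log2 fold changes of these genes were those of Arc (1.66 ± 0.50) and Egr2 (1.32 ± 0.51) in the cortex and Fos (0.63 ± 0.22) and Arc (0.42 ± 0.29) in the hippocampus. The sums of the 5 markers of each region fitted the labels, at 175 to 234 FPKM in the cortex and 37.1 to 40.7 in the hippocampus for the cortex markers, and at 24.0 to 47.5 and 113 to 143 for the hippocampus markers. Of single markers, Prox1 of the dentate gyrus was higher in hippocampal IR without overlap (log2 fold change 0.30, unadjusted p = 0.00465), and Tagln of mural cells was lower without overlap (-0.31, unadjusted p = 0.0293, limma). Their lists did not move as a whole in the hippocampus. Of the 5 hippocampus markers 3 were above 0, with Wfs1 at -0.34 and Fibcd1 at -0.049. Of the 5 mural markers 2 were above 0, and their median log2 fold change was -0.0019. What part these cell types or genes had in the values of the heat shock genes was not tested.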

How the data were processed

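RNA was taken from the cortex and hippocampus of Con and IR mice, 3 libraries per group. Per the labels and methods, the authors trimmed paired-end reads with FASTX_Trimmer and BBMap, aligned them to mm10 with TopHat and quantified genes with Cufflinks; the deposited values are FPKM, to which the authors applied edgeR's geometric scaling. The annotation behind them is not given in the sources used here. The labels and the methods name different RNA extraction reagents. The files hold no counts, so the depth is unknown and counting error has no interval; summed FPKM ranged from 359773 to 393447 per library, and 0 pairs of libraries were identical.

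Within each tissue, genes reaching 0.5 FPKM in 3 or more of 6 libraries were fitted as log2(FPKM + 1) with limma 3.58.1 (R 4.3.3; trend and robust prior; Benjamini-Hochberg over all tested genes). Adding 1 FPKM understates the changes of low genes such as Hspa1a and Hspa1b. The interaction and the region contrast used all 12 libraries, and ratios within libraries the exact two-sided permutation test. The scripts were tested on simulated data. Groups came from the labels alone.

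The members, gene lists and tests were chosen with earlier results of these data known. Named are all members, the heat shock factors, the constitutive paralogs and the cold-inducible genes, and from the other lists the genes with an adjusted p under 0.05 or the 2 largest log2 fold changes in a tissue. For the cell type and region marker lists those genes are named only in part. Promoter windows came from RefSeq (GRCm38.p6), positions and shared 100-base stretches from GENCODE M21. Alternatives covered the filter, the pseudocount, the scaling, the prior, the fit, the library number as a block and each library left out.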

Additional observations from a re-analysis of the deposited data

Results flagged for a closer look

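Dnajb5 was the 1 of 10 members with an unadjusted p under 0.05 in the test of whether the difference between IR and Con was the same in both regions. That count is at the share of all genes, 10.4% of which were under 0.05. Its log2 fold changes were 0.67 (cortex) and 0.15 (hippocampus), a difference of -0.52 ± 0.13 (unadjusted p = 0.00109, adjusted p = 0.201, limma interaction over 12 libraries), so it did not pass the correction over all genes. In the cortex 3 of 3 IR libraries lay above all Con libraries, and in the hippocampus 1 of 3 lay clearly above them. Region cannot be told apart from processing run here. Groups of 3 libraries were too small for the test of single outlying libraries, so none was made.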

How the results depend on the processing

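Dnajb5 was the 1 member called in the cortex in all 14 alternatives (adjusted p 0.0032 to 0.0353, limma), and 0 members were called in the hippocampus in all 15. At an unadjusted p under 0.05 the cortex count of 6 was 4 to 7 with single libraries left out and 5 to 6 otherwise. The hippocampus count of 4 was 2 to 5, with 2 without IR 1 or without IR 3, and also 2 without Con 2 and IR 1, the libraries highest in choroid plexus genes, an alternative chosen after seeing the data. The study's thresholds with the limma p gave 1 to 3 members in the cortex instead of 2 (1 without IR 1). The interaction gave 1 to 2 instead of 1, with Hspa1a (without cortex IR 1) or Hsph1 (without cortex IR 2 or hippocampus Con 3) as the additional gene. Signs near 0 reversed. With single libraries left out, the log2 fold change ranged from -0.011 to 0.060 for Hsp90aa1 and from -0.074 to 0.13 for Hspb8 in the cortex. In the hippocampus it ranged from -0.0078 to 0.15 for Hsph1, from -0.051 to 0.088 for Hsp90aa1 and from -0.014 to 0.14 for Hspb8, and for Hsp90aa1 it was 0.12 with quantile normalization and 0.0077 with size factors. The interaction ranged from -0.035 to 0.13 for Dnajb1, -0.071 to 0.067 for Hsp90aa1, -0.051 to 0.042 for Hspa8, -0.044 to 0.16 for Hspb8 and -0.051 to 0.12 for Hspa4l. With quantile normalization it was 0.076 for Hsp90aa1 and 0.084 for Hspa8, with size factors 0.011 for Hspa8, and without IR 1 of both tissues (an alternative also chosen after seeing the data) 0.012 for Hsp90aa1, 0.013 for Hspa8 and -0.12 for Hspb8. The region difference of Hsp90aa1 ranged from -0.097 to 0.042, the ratio of Hsp90aa1 to Hsp90ab1 in the cortex from -0.0033 to 0.030 and that of Hspa1b to Hspa1a in the hippocampus from -0.22 to 0.012 (log2). Over all genes, the 102 adjusted calls of the cortex were 24 with no filter, 22 with plain limma and 16 to 78 with 1 library left out. The 4 of the hippocampus were 73 in a single fit of 12 libraries, 1 with the block, 880 without Con 3 and 0 without any 1 of the IR libraries. The causes were not tested.

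By the correlations over all genes the library number was not treated as pairing the samples, while whether same-numbered libraries share a mouse is not stated: same-numbered Con and IR libraries had correlations of deviations from -0.11 to 0.11 in the cortex and from -0.39 to -0.085 in the hippocampus, and same-numbered cortex and hippocampus libraries from -0.083 to 0.17. With the number as a replicate block, 6 members in the cortex and 3 in the hippocampus had an unadjusted p under 0.05, and the adjusted calls were 1 and 0; Hspa8 in the hippocampus was no longer under it (0.0943). With 3 libraries per group and no read counts, small differences could not be resolved.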

Other observations

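Several chaperone groups were highest in a single Con library of the hippocampus, Con 1. The 13 TRiC and prefoldin genes summed to 1149 FPKM there, against 827 and 975 in the other Con libraries and 811 to 912 in the IR libraries. The 13 other J proteins of the list above summed to 710.4 FPKM against 574 to 654, the 9 mitochondrial chaperones to 428 against 317 to 386 and the 7 constitutive paralogs to 1122 against 878 to 987. Hsp90aa1 followed these groups, with its highest hippocampal value of 454 FPKM in Con 1, whereas Hspa1a and Hspb1 had their lowest values in that library. Con 1 was the highest of the 6 libraries for 26.1% of all genes tested.

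Hspa12b, an HSP70 relative expressed in endothelial cells, had log2 fold changes of 0.17 ± 0.097 in the cortex and -0.24 ± 0.13 in the hippocampus (interaction unadjusted p = 0.0279, adjusted p = 0.430, limma). Dnajc21 had the largest interaction of the J proteins named here, at -0.86 ± 0.22 (unadjusted p = 0.00192, adjusted p = 0.230, limma). Neither passed the correction over all genes.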
